A study of Mus musculus with 8 samples.

Results

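The genes examined here were 10 genes that encode proteins of the cardiac sarcomere: Myl2, Myl3, Tnni3, Tnnt2, Tnnc1, Actc1, Tpm1, Mybpc3, Ttn and Actn2. They were chosen by name from the 32285 genes of the count tables, and all 10 were found and passed the filter on low counts in every comparison. The tables came from single-nucleus RNA sequencing (snRNA-seq) of whole hearts of 9-week-old male mice, with 4 wild-type (WT) mice and 4 Tafazzin-knockout (Taz-KO) mice, a model of Barth syndrome, and 1 library per mouse. Tafazzin is a mitochondrial enzyme that remodels the phospholipid cardiolipin. No treatment is named for either group, and which part of the Taz gene the knockout lacks is not given in the sources used here. The hearts were minced and cryopreserved and the nuclei were released with detergent, so atria and ventricles were processed together. Mice are called here by genotype and number, WT 4686, 4909, 5355 and 5356 and Taz-KO 4685, 4910, 5300 and 5301.

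The sarcomere is the contractile unit of striated muscle, in which thick filaments of myosin pull on thin filaments of actin. Myosin light chains, troponins, tropomyosin and myosin-binding protein C regulate that movement, titin spans from the Z-disc to the M-band as a molecular spring, and α-actinin anchors actin at the Z-disc. Their mRNAs are among the most abundant of the cardiomyocyte cytoplasm, whereas an isolated nucleus holds mainly unspliced and newly made transcripts, and cytoplasmic RNA that is freed during isolation can enter droplets with any nucleus.

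The 10 genes differ widely in size. By the principal transcript of the GENCODE annotation of GRCm38, Tnnc1 (chr14:31208312-31211729) spans 3.418 kb, Tnni3 4.224 kb, Actc1 5.606 kb, Myl2 5.904 kb, Myl3 6.153 kb, Tnnt2 11.386 kb and Mybpc3 18.373 kb, and these 7 are called short below. Tpm1 spans 26.817 kb, Actn2 71.335 kb and Ttn, on chromosome 2, 275.152 kb with 312 exons, and these 3 are called long, with the limit set at 20 kb. Introns make up 88.8% of the Myl2 transcript, which is 0.662 kb once spliced, and 63.5% of the Ttn transcript, which is 100.4 kb once spliced. Reads in introns were counted in these data together with those in exons. The part of intron length in the levels below was not tested.

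The promoters of 4 members are shown. They are those whose window lies within 32 bases of the start of the principal transcript and holds at least 1 of the muscle motifs searched, and they were picked after the search. Each is the RefSeq window from 250 bases before to 50 bases after the start site, read 5′ to 3′ on the strand of the gene in GRCm38.p6, with the motifs found in capitals. Motifs bound by muscle transcription factors, and the TATA box, were searched on both strands. The windows were chr9:110763428-110763727 for Myl3, chr14:31208062-31208361 for Tnnc1, chr2:114052826-114053125 for Actc1 and chr2:91117894-91118193 for Mybpc3.
Myl3: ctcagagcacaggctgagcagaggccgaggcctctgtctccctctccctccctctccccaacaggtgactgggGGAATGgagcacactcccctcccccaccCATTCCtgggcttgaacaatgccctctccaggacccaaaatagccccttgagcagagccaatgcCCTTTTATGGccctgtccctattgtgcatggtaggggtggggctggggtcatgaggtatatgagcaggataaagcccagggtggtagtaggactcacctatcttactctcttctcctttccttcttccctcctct
Tnnc1: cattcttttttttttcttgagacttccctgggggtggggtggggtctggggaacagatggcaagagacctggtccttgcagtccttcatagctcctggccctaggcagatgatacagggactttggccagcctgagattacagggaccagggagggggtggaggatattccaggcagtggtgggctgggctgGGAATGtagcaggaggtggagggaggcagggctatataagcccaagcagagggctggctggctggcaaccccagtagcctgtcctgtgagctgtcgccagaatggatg
Actc1: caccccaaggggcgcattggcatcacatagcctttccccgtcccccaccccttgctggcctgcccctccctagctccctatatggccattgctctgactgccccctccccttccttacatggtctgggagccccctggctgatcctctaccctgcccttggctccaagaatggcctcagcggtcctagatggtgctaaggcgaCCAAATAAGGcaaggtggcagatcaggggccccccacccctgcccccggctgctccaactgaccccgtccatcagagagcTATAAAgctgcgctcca
Mybpc3: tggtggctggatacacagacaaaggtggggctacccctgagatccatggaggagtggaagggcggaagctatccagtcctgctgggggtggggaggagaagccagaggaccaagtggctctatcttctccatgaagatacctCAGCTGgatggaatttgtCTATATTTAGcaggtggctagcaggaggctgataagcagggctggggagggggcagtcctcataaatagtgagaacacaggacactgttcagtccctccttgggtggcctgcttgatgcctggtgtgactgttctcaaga
The Myl3 window holds 2 MCAT elements and, at -85 from the start site, a CArG box. The Tnnc1 window holds an MCAT element at -58. The Actc1 window holds a CArG box at -47 and the letters of a TATA box at 33. The Mybpc3 window holds a MEF2 site at -90 and an E-box at -108. Of 32851 promoter windows of the same length, 14.7% hold an MCAT element (CATTCC). The CArG box is found in 1.63% of them. The MEF2 site, CTA and TAG parted by any 4 bases, is found in 3.69%. An E-box (CAGCTG) is held by 16.3%, a TATA box (TATAAA) by 13.6% and a GATA site (AGATAA) by 11.2%. Of the 10 members, 5 have a window with an MCAT element, and the windows of Tnni3 and Actn2 held none of the motifs. A match of letters is a description and not a binding site.

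Libraries held 3492 to 36308 barcodes and 20025456 to 348080773 unique molecular identifiers (UMIs), and Taz-KO 4685 and 5301 were far below the other 6 mice in both. Pairs of libraries shared 2 to 294 barcodes, and the largest share of the smaller library was 1.04%. Tafazzin's own gene, Taz, stood in cardiomyocytes at 48.3 to 54.1 counts per 1000000 UMIs (CPM) in WT and 28.2 to 46.8 CPM in Taz-KO mice, lower in every Taz-KO mouse. Cardiomyocytes were the 28953 nuclei of 7 clusters that scored highest on Ryr2, Fhod3, Ctnna3, Rbm20 and Corin or, for 1 of them, on atrial markers, and the 10 genes took no part in the clustering. A further 3 clusters of 2448, 414 and 356 nuclei also scored highest on these markers but were left unnamed and out, 2 of them because they scored high for another type as well and 1 because genes of another named cluster led it. The summed level of those 5 markers was 17780 to 28189 CPM in cardiomyocytes and 2695 to 10678 CPM in the comparator, without overlap. The comparator, called the lowest-UMI barcodes, was the 10% of barcodes with the fewest UMIs in each library, 16917 in all, of which 1.29% lay in cardiomyocyte clusters, 42.8% in clusters of other named types and 55.9% in no named type, most of these in clusters left unnamed. How many of these barcodes are nuclei and how many are empty droplets was not tested. They held 500 to 616 UMIs in Taz-KO 5301 but 6522 to 7021 in WT 4909, so the comparator is not the same in every mouse. Levels are CPM of the summed UMIs of a mouse and fraction, without mitochondrial genes. The barcodes of the comparator were left out of every cell type. Cardiomyocyte sums then held 167 nuclei in Taz-KO 4685 and 955 in Taz-KO 5301, against 3571 to 7107 in the other mice.

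In cardiomyocyte nuclei, titin and α-actinin stood well above the lowest-UMI barcodes, whereas both ventricular light chains, cardiac troponin I and cardiac actin stood below them. By edgeR's quasi-likelihood test with mouse as a term, 4 members were higher and 4 lower at a Benjamini-Hochberg adjusted p under 0.05, where 40.8% of all 16782 genes tested were higher and 40.2% lower. The share of members called is close to that background, since most genes differed between these fractions. By span, 2 of 3 long genes were higher and none lower, and of 7 short genes 2 were higher and 4 lower. These are few genes, and the shares of long and short genes called over all genes tested were not computed. The median log2 difference was 1.66 for the long genes and -0.68 for the short ones, beside 0.03 for all genes tested.

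Titin, the spring of the sarcomere and the product of Ttn, was at 23377, 22832, 21128 and 34798 CPM in cardiomyocytes of WT 4686, 4909, 5355 and 5356, against 7404, 6139, 6910 and 8270 CPM in their lowest-UMI barcodes. In Taz-KO 4685, 4910, 5300 and 5301 the cardiomyocyte values were 17319, 23144, 20886 and 28353 CPM, against 4839, 7683, 5782 and 8753 CPM. Every mouse was higher in cardiomyocytes, at 3.01 to 4.21 times the comparator, and the ranges of the fractions did not overlap. The log2 difference was 2.20 ± 0.16 (SE, 8 mice, edgeR adjusted p = 9.01e-10). Actn2, which encodes the cardiac α-actinin that crosslinks actin at the Z-disc, was likewise higher in 8 of 8 mice, by 1.99 to 2.74 times, with a log2 difference of 1.66 ± 0.13 (adjusted p = 1.77e-09, edgeR).

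Myl2, the regulatory light chain of ventricular myosin, ran the other way. Its cardiomyocyte level was 2015, 2678, 2477 and 908 CPM in the 4 WT mice in the order above, against 5040, 6137, 5840 and 1206 CPM in the lowest-UMI barcodes. In the Taz-KO mice it was 1004, 1104, 1356 and 617 CPM, against 3493, 3601, 2799 and 615 CPM. The cardiomyocyte level was 0.287 to 0.753 of the comparator in 7 mice and 1.00 in Taz-KO 5301, whose comparator has the fewest UMIs. The log2 difference was -0.68 ± 0.19 (edgeR adjusted p = 0.00362).

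Myl3, the essential light chain of the same myosin, was lower in cardiomyocytes in 8 of 8 mice, at 0.196 to 0.677 of the comparator (log2 difference -1.08 ± 0.17, edgeR adjusted p = 1.61e-05). Tnni3, the inhibitory subunit of troponin, was lower in 8 of 8 mice as well, at 0.236 to 0.570 of it (log2 difference -1.02 ± 0.15, adjusted p = 8.54e-06). Actc1, the actin of the cardiac thin filament, was at 0.196 to 0.731 of it (log2 difference -1.04 ± 0.18, adjusted p = 3.29e-05). These 3 genes and Myl2 are all under 7 kb in span, as is Tnnc1, the shortest member, which was not called.

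The other troponin subunits and the remaining regulators did not follow them. Tnnt2, the subunit that ties troponin to tropomyosin, was higher in cardiomyocytes in 6 of 8 mice, with ratios of 0.957 to 2.29 (log2 difference 0.91 ± 0.17, edgeR adjusted p = 0.000107). Mybpc3, the myosin-binding protein C of the thick filament, was higher in 6 of 8 mice, with ratios of 0.665 to 1.75 (log2 difference 0.57 ± 0.15, adjusted p = 0.00214). Tnnc1, the calcium-binding subunit, and Tpm1, the tropomyosin along the thin filament, did not pass the test, with log2 differences of -0.04 (95% interval -0.46 to 0.38) and -0.16 (-0.57 to 0.24). These log2 differences use TMM scaling, which lies above the plain ratios of CPM. With plain library sizes the median of all genes moved to -0.38, with 27.0% of them called higher and 51.7% lower, the 4 lower members kept their direction and call, Tpm1 (-0.58) and Tnnc1 (-0.46) were called lower too, and Mybpc3 (0.15, adjusted p = 0.373) was no longer called.

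**Figure D1:**
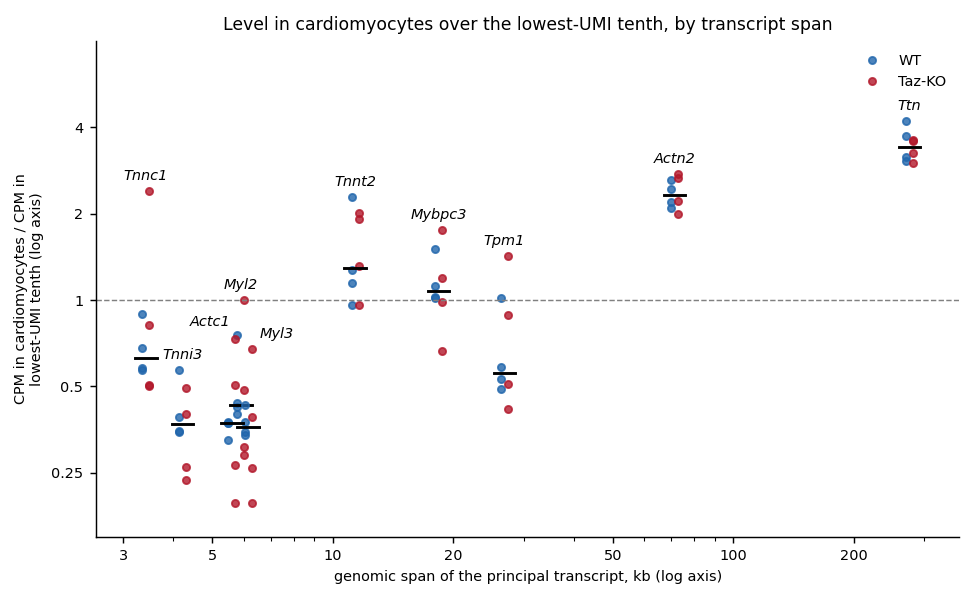
Each point is 1 mouse (WT blue, Taz-KO red) and gives the CPM of a gene in cardiomyocytes divided by its CPM in the lowest-UMI barcodes (log axis), against the genomic span of the gene's principal transcript in kb (log axis). Black bars are medians of 8 mice: the 4 genes from Tnni3 to Myl3 have medians of 0.360 to 0.430, and Actn2 and Ttn have 2.32 and 3.41.

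Across the 10 genes the log2 difference went with log10 of the transcript span, with Pearson r = 0.86 and Spearman rho = 0.66. Over 57 genes, which are the members and a list of other sarcomere genes that was also kept out of the clustering, r was 0.67 and rho 0.68. A list of mostly short and a list of mostly long cardiomyocyte genes were then added, without the 5 markers that chose the nuclei. Over these 87 genes r was 0.74 and rho 0.74. The 2 added lists differ in span by choice, so these values were partly set in advance and lend no support. The relation over all genes tested was not computed. These are descriptions over genes of the same 16 sums and not over independent samples, and cardiomyocyte expression, span and intron length differ together between the lists. Tpm1, with 26.817 kb, lay below the shorter Tnnt2 and Mybpc3, and Tnnc1, the shortest, lay above the 4 lower genes.

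In nuclei of other cell types, which should lack most of these genes (Tpm1 is also made outside cardiomyocytes), the members stood in most types and mice at nearly 1 common ratio to the lowest-UMI barcodes. In fibroblasts the median ratios over 8 mice ran from 0.487 for Ttn to 0.542 for Tpm1, and in macrophages from 0.626 for Tnnc1 to 0.654 for Actc1. Within a mouse, the largest of the 10 ratios exceeded the smallest by a median of 1.12 times in fibroblasts, 1.09 times in endothelial cells and 1.09 times in macrophages, and by 9.72 times in cardiomyocytes (8.09 to 18.3). In Taz-KO 5301, whose comparator has the fewest UMIs, it was 1.88 times in fibroblasts and ran from 1.33 times in macrophages to 8.54 times in lymphatic endothelial cells over the 8 other types, with Tpm1 the highest member in 6 of them. All 10 members were lower than in the comparator and called in each of 8 cell types by edgeR. Of all genes tested, 35.9% were lower in fibroblasts, 29.5% in endothelial cells, 32.7% in macrophages, 38.7% in pericytes, 35.5% in mesothelial cells, 33.0% in lymphatic endothelial cells, 22.9% in smooth muscle cells and 23.7% in adipocytes. These 8 comparisons and the one for cardiomyocytes share the comparator.

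**Figure D2:**
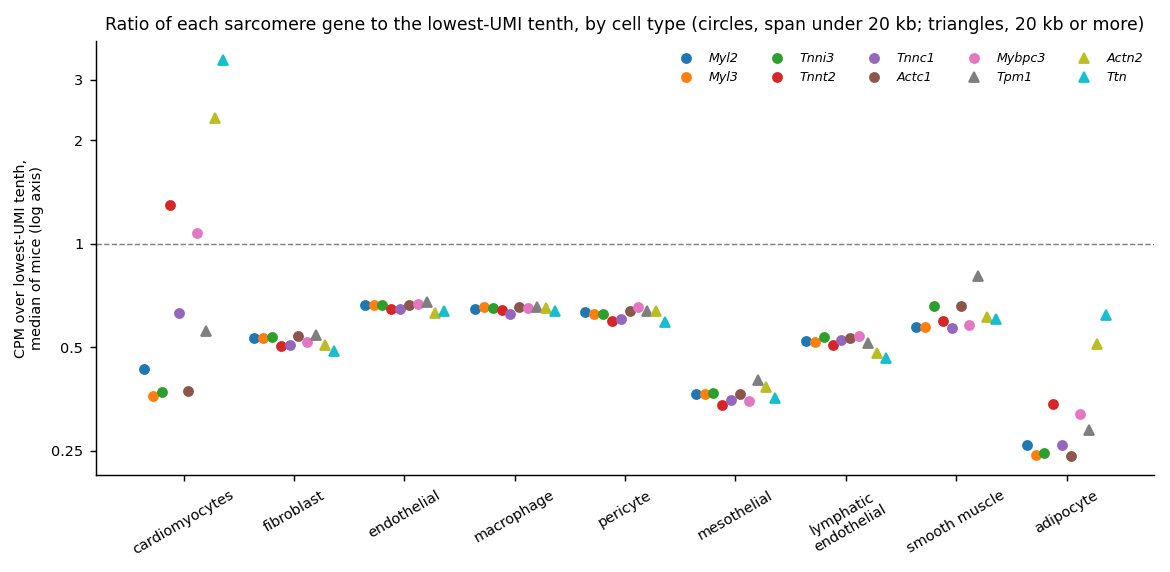
Each point is the median over mice (8, or 7 for adipocytes) of a gene's CPM in a cell type divided by its CPM in the lowest-UMI barcodes (log axis). Outside cardiomyocytes the 10 genes lie close together below 1 in most types, and in cardiomyocytes they spread from 0.360 for Myl3 to 3.41 for Ttn.

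Smooth muscle cells and adipocytes spread more. In smooth muscle, Tpm1, which smooth muscle also makes, was at 0.803 of the comparator against 0.572 for Myl2. In adipocytes Ttn was at 0.621 and Myl2 at 0.260, over 7 mice with 21 to 303 such nuclei, Taz-KO 4685 being left out with 9.

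Set against fibroblasts of the same mouse, cardiomyocyte nuclei held more Ttn in 8 of 8 mice (median ratio of CPM 6.75), more Actn2 (4.72), more Tnnt2 (2.55) and more Mybpc3 (1.97). Myl2, Myl3, Tnni3 and Actc1 had median ratios of 0.593 to 0.723 and were higher in cardiomyocytes in 2 of 8 mice each, WT 5356 and Taz-KO 5301. With TMM scaling in edgeR the same 4 genes had log2 differences from 0.02 for Myl3 to 0.40 for Myl2, none of them called, so their direction against fibroblasts depends on the scaling. The other 6 members were higher in cardiomyocytes and called in that fit, in which 35.7% of all genes tested were.

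Shares of nuclei with a UMI had the same order. With each nucleus thinned to 1000 UMIs, a median of 72.3% of cardiomyocyte nuclei per mouse had a Myl2 UMI (42.0% to 93.0%), against 85.97% of fibroblast nuclei (11.6% to 97.4%). For Actn2 the shares were 62.7% and 22.2%, and for Ttn the share was 99.9% in the lowest mouse, against a median of 96.1% in fibroblasts. Without thinning, the Myl2 share was 99.98% of cardiomyocyte nuclei and that of Actn2 99.1% against 66.5% of fibroblast nuclei, at median depths of 6943.5 to 23481 UMIs in cardiomyocytes and 2778.5 to 6923.5 in fibroblasts. At 1000 UMIs the share with a Myl2 UMI was lower in cardiomyocytes than in fibroblasts, a type that should lack Myl2, in 6 of 8 mice, and is not read as expression there. It was higher in cardiomyocytes of WT 5356, at 58.9% against 35.8%, and of Taz-KO 5301, at 42.0% against 11.6%.

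Without any cell typing, the levels also changed with the UMI count of a barcode. The barcodes of each library were split by UMI count into 10 classes of equal size. The first class holds nearly the same barcodes as the comparator. From the first class to the last, barcodes in cardiomyocyte clusters rose in 8 of 8 mice. In WT 4686 they rose from 50 of 2260 to 1057 of 2259, and in Taz-KO 4910 from 47 of 3631 to 2104 of 3630. These classes are therefore not independent of the comparison of cardiomyocytes with the comparator, and the part of cell type in the changes was not tested. From the first class to the last, Actc1 fell to a median of 0.246 of its first level, Myl3 to 0.250, Tnni3 to 0.268 and Myl2 to 0.302, lower in 8 of 8 mice for each. Ttn rose to 2.81 and Actn2 to 1.87 times, higher in 8 of 8 mice. In class 5 all 10 members were still below their first level, at medians of 0.607 for Tnni3 to 0.791 for Ttn. Tnnt2 ended at 1.03 and Mybpc3 at 0.782 of it. Tpm1, though long, ended at 0.418, lower in 7 of 8 mice, and Tnnc1 at 0.456.

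**Figure D3:**
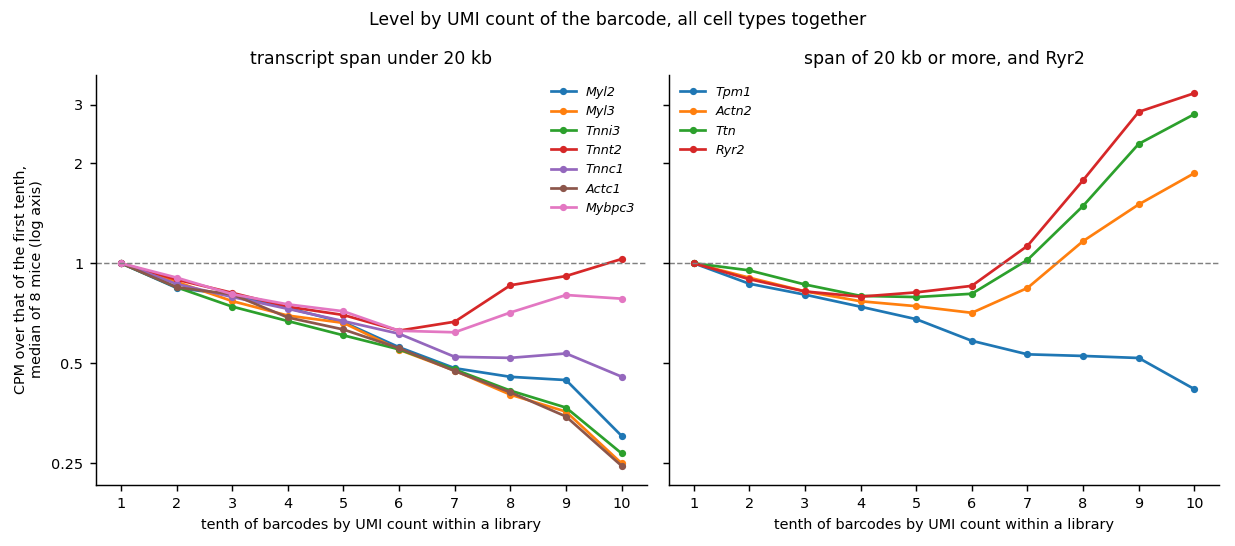
Lines give the median over 8 mice of CPM in each of 10 classes of barcodes, from the fewest to the most UMIs, divided by the CPM in the first class (log axis), for members under 20 kb in span (left) and for the longer members with the cardiomyocyte marker Ryr2 (right). Myl3, Tnni3 and Actc1 end at 0.246 to 0.268 and Ttn ends at 2.81.

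Between genotypes, every member was lower in the mean of Taz-KO cardiomyocytes on the TMM scale, but the differences were uneven and only those of the 2 light chains passed the test. Of the 10 members 2 were lower at an edgeR adjusted p under 0.05 and none higher, where 6.76% of 18415 genes tested were lower and 9.1% higher. The median log2 fold change was -0.47 over the members, -0.52 over the 7 short and -0.29 over the 3 long, beside -0.01 over all genes tested.

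**Figure D4:**
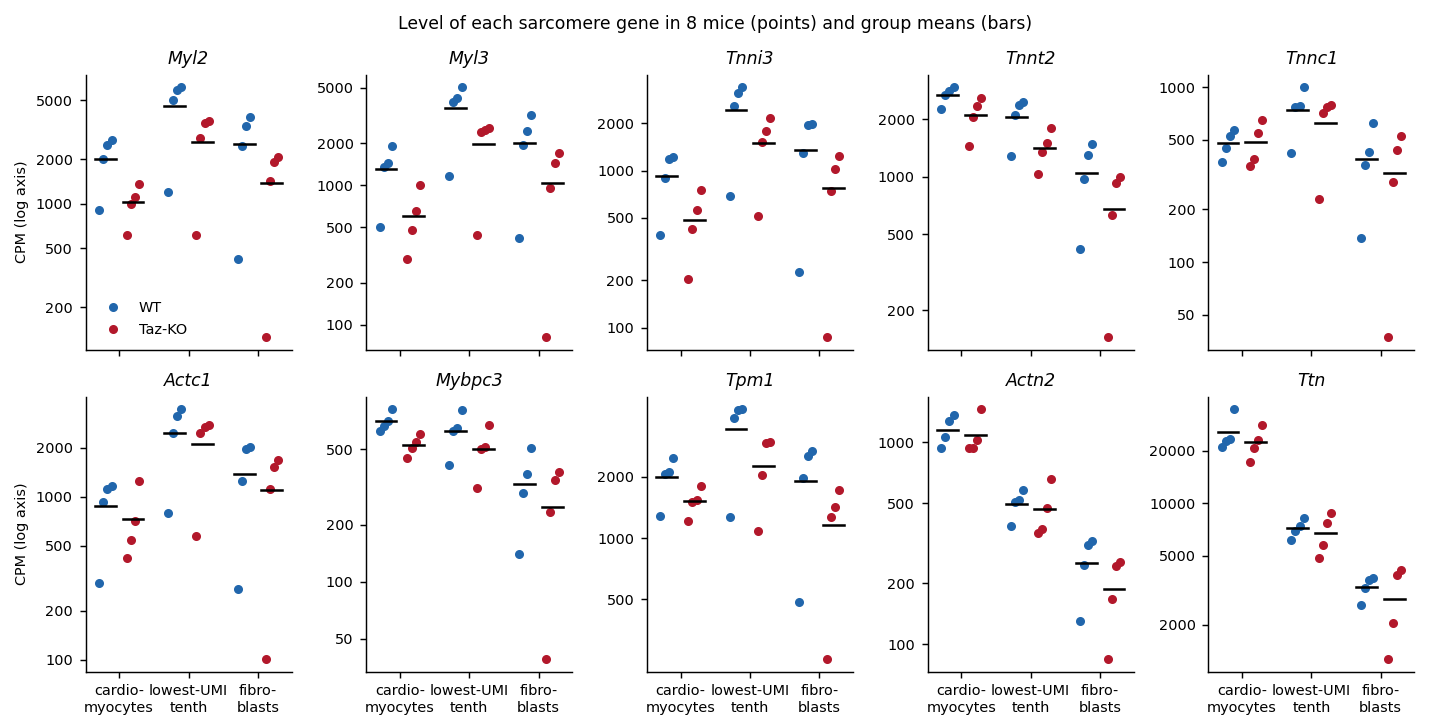
Points are single mice (WT blue, Taz-KO red, 4 of each) and black bars are group means of CPM (log axis) for each gene in cardiomyocytes, in the lowest-UMI barcodes and in fibroblasts. Within a group WT 5356 and Taz-KO 5301 are lowest for Myl2, Myl3 and Tnni3 in all 3 fractions, and WT 5356 is highest of the WT mice for Ttn in cardiomyocytes.

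For Myl2, whose values per mouse stand above, the cardiomyocyte means were 2020 ± 791 CPM in WT and 1020 ± 307 CPM in Taz-KO mice (SD, n = 4 each). The groups overlapped, since WT 5356 lay below 3 of 4 Taz-KO mice. The log2 fold change was -1.09 ± 0.29 (edgeR adjusted p = 0.0250). Myl3 was at 1348, 1895, 1451 and 503 CPM in WT and 474, 652, 1000 and 298 CPM in Taz-KO mice. It overlapped through the same WT mouse, and its log2 fold change was -1.22 ± 0.36 (adjusted p = 0.0437, edgeR).

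Tnni3 was at 896, 1225, 1179 and 390 CPM in WT and 424, 564, 753 and 204 CPM in Taz-KO cardiomyocytes. Again WT 5356 lay within the Taz-KO values, and the log2 fold change of -1.04 ± 0.36 did not pass the test (edgeR adjusted p = 0.0739). Mybpc3 was at 702, 813, 659 and 626 CPM in WT and 506, 449, 599 and 546 CPM in Taz-KO mice. It was the member without overlap, lower in every Taz-KO mouse, as were 7.19% of all genes tested, and its log2 fold change of -0.52 ± 0.17 did not pass the test (adjusted p = 0.0677, edgeR).

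The other members overlapped between the genotypes and did not pass the test. Tpm1 had a log2 fold change of -0.48 (95% interval -0.94 to -0.01), Tnnt2 -0.46 (-0.97 to 0.05) and Actc1 -0.38 (-1.20 to 0.44). Ttn had -0.29 (-0.98 to 0.39), Actn2 -0.15 (-0.69 to 0.39) and Tnnc1 -0.09 (-0.57 to 0.39), with edgeR adjusted p-values of 0.164 to 0.842 over these 6. In plain means of CPM Tnnc1 was level, at 481 ± 86.9 in WT and 484 ± 137 in Taz-KO mice.

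The light chain calls rested on most of the mice. Without any one of WT 4686, 4909 and 5355 and Taz-KO 4685, 4910 and 5301, Myl2 and Myl3 both missed the threshold, with log2 fold changes of -0.95 to -1.15 for Myl2 and -1.01 to -1.29 for Myl3. Without Taz-KO 5301 Mybpc3 (-0.61, edgeR adjusted p = 0.0423) passed it instead. Without WT 5356 both light chains and Tnni3 (-1.28, edgeR adjusted p = 0.0231) passed it. Without both Taz-KO 4685 and 5301, the libraries with the fewest UMIs, Myl2 was at -0.90 (adjusted p = 0.167, edgeR) and Myl3 at -0.85 (0.245), and no member was called. DESeq2 called Myl2, Myl3, Tnni3 and Mybpc3 lower, where it called 8.75% of all genes lower.

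Measures of the libraries moved with these levels. Mitochondrial UMIs were 4.64% to 15.99% of the cardiomyocyte total in WT and 0.524% to 11.6% in Taz-KO mice, lowest in WT 5356 and Taz-KO 5301 within their groups, the mice with the least Myl2. With that share as a covariate the log2 fold change was -0.79 for Myl2 (edgeR adjusted p = 0.104) and -0.77 for Myl3 (0.134), and neither was called, whereas among nuclei with under 5% mitochondrial UMIs both were (Myl2 -0.83, adjusted p = 0.0127, Myl3 -0.93, 0.0176). That fit keeps all 8 mice but only 8 of 4853 nuclei of WT 4909, the WT mouse with the most Myl2, and 156 of 7107 of Taz-KO 4910, so it does not weigh the same nuclei as the fit with the covariate. The summed level of 5 fibroblast markers in cardiomyocyte sums, none of them at 0, was 394 to 2136 CPM in WT and 172 to 1380 CPM in Taz-KO mice, and lowest in the same mice. The 5 markers that define the cardiomyocytes were at 23031 to 28189 CPM in WT and 17780 to 23461 CPM in Taz-KO cardiomyocytes, none of them at 0. Of these, Ctnna3 and Fhod3 were lower in every Taz-KO mouse, with log2 fold changes of -0.57 and -0.58 that did not pass the test (edgeR adjusted p = 0.139 and 0.154). The sum of 5 smooth muscle markers, none at 0, was 12.7 to 52.1 CPM in WT and 45.8 to 235 CPM in Taz-KO mice. The part of these markers in the result was not tested.

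The genotypes also drew on different clusters of cardiomyocytes. Cluster 9 held 5.47% ± 0.857 of WT and 25.3% ± 3.10 of Taz-KO cardiomyocytes (SD, n = 4 each), and cluster 6 held 41.3% ± 5.19 and 24.1% ± 4.72. Of these clusters 6 had 10 or more nuclei in 3 mice or more per genotype, and in them the Taz-KO median of Myl2, Myl3, Tnni3, Actc1, Tpm1 and Mybpc3 was lower in 6 of 6. That of Ttn was lower in 3 of 6.

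In the lowest-UMI barcodes, none of the 10 members was called, where 0.251% of 14760 genes tested were lower and 0.644% higher. All 10 estimates were negative, with a median of -0.53 beside 0.00 over all genes, and they come from the same mice as those in cardiomyocytes. Myl2 had a log2 fold change of -0.90 ± 0.67 (edgeR adjusted p = 0.858) and Myl3 of -0.97 ± 0.64 (0.808). The spread of these short genes was wide, since Taz-KO 5301 and WT 5356 lay far below the rest, Myl3 for example at 440 CPM against 2419 to 2557 CPM in the other Taz-KO mice.

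**Figure D5:**
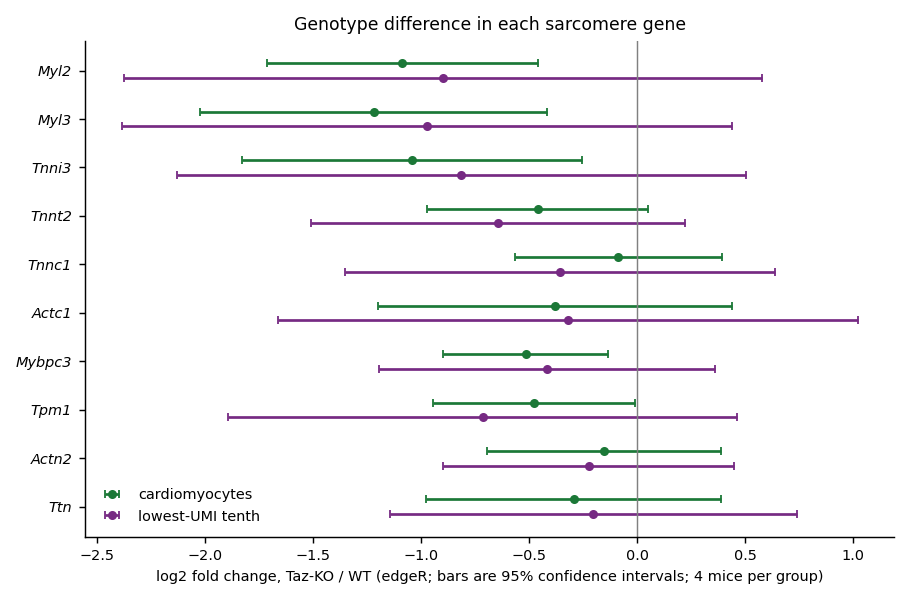
Points are log2 fold changes of Taz-KO over WT for each gene with 95% confidence intervals (edgeR, 4 mice per group), in cardiomyocytes (green) and in the lowest-UMI barcodes (purple). All 20 points lie below 0, and every interval of the lowest-UMI barcodes crosses it.

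A test of the difference between these genotype effects, with mouse, fraction and their interaction with genotype as terms, called none of the 10 members, where 0.411% of 16782 genes tested were lower in that difference and 0.924% higher. For Myl2 the effect in cardiomyocytes minus that in the comparator was -0.09 on the log2 scale (95% interval -0.92 to 0.74), for Myl3 -0.12 (-0.86 to 0.62) and for Ttn -0.03 (-0.74 to 0.68). A light chain difference particular to cardiomyocytes was not detectable within these intervals.

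In the 8 other cell types none of the 10 members was called between genotypes by edgeR or had an unadjusted p under 0.05. Of all genes tested, 0.302% were called in fibroblasts, 0.314% in endothelial cells, 0.239% in macrophages, 0.119% in pericytes, 0.0654% in mesothelial cells, 0.0557% in lymphatic endothelial cells, 0.0227% in smooth muscle cells and 6.06% in adipocytes. All 10 estimates were negative in 6 of the types, with medians of -0.39 in macrophages to -0.61 in fibroblasts, and 6 of 10 were negative in smooth muscle cells and in adipocytes. Fibroblasts of WT mice held 2531 ± 1520 CPM of Myl2 and those of Taz-KO mice 1381 ± 881 CPM (SD, n = 4 each), with 126 CPM in Taz-KO 5301.

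Atrial cardiomyocytes were the cluster that scored highest on the list of Nppa, Sln, Bmp10, Sbk2, Stard10 and Dkk3. None of these markers was among the genes that led the cluster. These cardiomyocytes had lower means of the light chains and Tnni3 in Taz-KO mice, with overlap. Myl2, Myl3 and Tnni3 had means of 1973 ± 1126, 1528 ± 846 and 1303 ± 569 CPM over 4 WT mice. Their means over the 3 Taz-KO mice with 10 or more such nuclei were 1079 ± 689, 830 ± 650 and 969 ± 570 CPM (SD). Ttn was level, at 19226 ± 4637 and 19711 ± 2399 CPM. Myl2 is the light chain of ventricular myosin and is little used in atria, and its level in the other cardiomyocytes of WT mice was 2022 ± 788 CPM.

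Among 50 other genes of the sarcomere, Z-disc and M-band, some were lower and others higher in Taz-KO cardiomyocytes. Of the 47 tested, 8 (17.0%) were lower and 2 (4.26%) higher by edgeR, beside 6.76% and 9.1% of all genes, with a median log2 fold change of -0.27. Myot, the Z-disc protein myotilin, was lowest at -2.25 ± 0.32 (edgeR adjusted p = 0.00103), falling from 38.7 ± 11.2 to 8.52 ± 3.29 CPM without overlap. Tcap, the titin cap, had -1.53, Myom2, a protein of the M-band, -1.23, and Obsl1 -1.06. Ankrd1, an ankyrin repeat protein of the I-band, rose from 332 ± 124 to 1007 ± 186 CPM (log2 fold change 1.53 ± 0.27, adjusted p = 0.00299, edgeR), and Flnc, the actin crosslinker filamin C, from 80.2 ± 6.91 to 239 ± 57.0 CPM (1.48 ± 0.22, adjusted p = 0.000923). Ankrd1 and Flnc were higher in every Taz-KO mouse, as were 15.7% of all genes. In the lowest-UMI barcodes Myot was lower too, at -2.15 (edgeR adjusted p = 0.00748). It was the 1 gene of the 47 called lower there, beside 0.251% of all genes tested. Tcap (-0.84), Myom2 (-0.88), Obsl1 (-0.52), Ankrd1 (1.27) and Flnc (0.97) had the same signs there and were not called. Without Taz-KO 4685 and 5301, 6 of 49 tested were lower and 3 higher, beside 716 and 1224 of all 19423 genes tested. Leaving out 1 mouse gave 4 to 9 lower and 2 to 4 higher. Without Taz-KO 5300, 4 of 48 were lower and 4 higher, beside 874 and 1335 of all 18637 genes tested.

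Genes of the fetal or atrial sarcomere were not called between genotypes in cardiomyocytes. Acta1, skeletal actin, had a log2 fold change of 1.68 ± 0.62 (edgeR adjusted p = 0.104) with 7.58 to 61.0 CPM in WT and 32.5 to 183 CPM in Taz-KO mice. Myh7, the slow myosin heavy chain, had 0.49 (adjusted p = 0.268), Myh6, the fast one, -0.27 (0.535), Myl4 0.43 (0.513) and Myl7, the atrial light chains, 0.10 (0.943), all by edgeR. Tnni1 was too low to test, at 0.0598 to 0.552 CPM. Myh7 was higher in the lowest-UMI barcodes (log2 fold change 1.06, edgeR adjusted p = 0.0364).

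A list of 16 other abundant cardiomyocyte genes, mostly short and of energy metabolism and calcium handling, had 12 lower and 3 higher in cardiomyocytes than in the comparator (median log2 difference -0.95), beside 40.2% and 40.8% of all genes tested. Of its 13 genes under 20 kb 11 were lower and 1 higher, and of its 3 longer genes Mb, which encodes myoglobin, was lower and Atp2a2 and Ckmt2 were higher. Between genotypes all 16 estimates were negative with a median of -0.67, beside -0.01 over all genes tested, and 3 (18.75%) were called lower, beside 6.76% of all genes. The strongest was Hrc, a calcium-binding protein of the sarcoplasmic reticulum, with 159, 230, 236 and 76.3 CPM in WT and 24.4, 51.1, 57.7 and 19.0 CPM in Taz-KO mice (log2 fold change -2.30 ± 0.38, edgeR adjusted p = 0.00307). Csrp3, muscle LIM protein, had -0.75 (0.00922), and both were lower in every Taz-KO mouse. The third was Tcap, given above. Csrp3 and Tcap also belong to the list of 50 sarcomere genes and are counted among its lower genes, so the 2 lists are not separate. In the lowest-UMI barcodes Hrc was at -2.13 and Csrp3 at -0.43, neither of them called (edgeR adjusted p = 0.182 and 0.972). A list of 22 cardiomyocyte genes that are mostly long holds the 5 markers that chose the nuclei, and all 17 others were higher than in the comparator (median log2 difference 2.47). Most genes of these 2 lists were not kept out of the clustering, so their levels in cardiomyocytes against the comparator are a description. Of the 17, 4 (23.5%) were lower in Taz-KO cardiomyocytes and none higher, beside 6.76% and 9.1% of all genes, led by Kcnd2, a potassium channel, at -1.53 ± 0.23 (adjusted p = 0.00113). In the lowest-UMI barcodes Kcnd2 was at -1.12 and not called (edgeR adjusted p = 0.407). With the markers, 4 of the 22 genes were lower. Without Taz-KO 4685 and 5301, 1 of the 16 and 2 of the 22 genes were lower, beside 716 of all 19423 genes tested. Without WT 5356 the counts were 8 and 3, beside 1024 of 18728. With DESeq2 they were 8 and 5, beside 1612 of 18415. Under 5% mitochondrial UMIs they were 3 and 11, beside 1148 of 14214.

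The genes whose level was most like that of Myl2 over 79 sums of mouse and fraction, by Pearson r of log2(CPM + 1) among 4460 genes, were Slc25a4 (0.98), Ckm (0.97), Atp5a1 (0.97), Got2 (0.96) and Atp5h (0.96). Slc25a4 is the mitochondrial ADP/ATP carrier and Ckm muscle creatine kinase. Those most like Ttn included Trdn (0.97), Txlnb (0.97), Ldb3 (0.96) and Fhl2 (0.96), of which Trdn is triadin of the junctional sarcoplasmic reticulum. Among the members, Myl2 went with Myl3 and Tnni3 at r = 0.98 each and with Ttn at 0.46, and Ttn went with Actn2 at 0.94. The sums share mice and libraries, so r describes them and carries no test.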

How the data were processed

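Nuclei of whole hearts were sequenced with 10x Genomics 3′ v3.1 chemistry. The authors aligned the reads, introns included, with Cell Ranger 6.0.1 to the mm10-2020-A reference and deposited the matrices of raw counts (UMIs) that it gives, with 169193 barcodes in 8 libraries, not corrected for ambient RNA. The study corrected with SoupX and removed doublets with DoubletFinder, and neither result was used here. Nuclei needed 800 or more UMIs and 250 or more genes, 16231 were removed as doublets by simulated pairs of nuclei, and the 151264 left were joined over libraries by a Harmony procedure (15 components, 2000 variable genes without the members) and clustered (Leiden, resolution 0.9, 36 clusters). Clusters were named from marker lists by a rule set after the scores were seen, and 38795 nuclei stayed unnamed, so cell types are rebuilt and may differ from those of the study. The lowest-UMI comparator was taken from all barcodes before these filters. The study kept far fewer nuclei than the 151264 barcodes kept and called nuclei here. How many of these are nuclei was not tested.

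Counts were summed per mouse and fraction, mitochondrial genes left out, and tested with edgeR 4.0.16 (TMM, filterByExpr, glmQLFit robust, glmQLFTest, two-sided, R 4.3.3) on all genes, with Benjamini-Hochberg adjustment and a threshold of 0.05. These tests replace the study's test over single nuclei. DESeq2 1.42.0 was an alternative. Each sum tested holds 297716 to 12399978 UMIs for the comparator and 4718900 to 99590458 for cardiomyocytes. Scripts were tested on simulated data. CPM are per 1000000 UMIs without mitochondrial genes. Replicates are single mice with a library each. Annotation was GENCODE on GRCm38, the build of mm10, with 32158 of 32285 genes matched, and its release may differ from that of the authors. Genes named are the 10 members, up to 8 genes per list with the largest change among those called in cardiomyocytes, 6 fetal or atrial genes, and the 5 genes most like Myl2 and Ttn, of which 1 is not reported here. The members and lists were chosen with earlier results of these data known. Flow cell and chemistry are the same for all libraries in the labels, which give no batch.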

Additional observations from a re-analysis of the deposited data

Results flagged for a closer look

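Each of 40 sets held the CPM of a member in cardiomyocytes or in the lowest-UMI barcodes for the 4 mice of 1 genotype. In 6 of them a mouse lay far from the other 3 by Dixon's criterion, and all 6 were WT 5356 or Taz-KO 5301. Chance flags about 1 of 20 independent sets. These sets share the same 8 mice and are not independent, so the 6 cannot be weighed against that share. In cardiomyocytes Ttn was highest in WT 5356, at 34798 CPM with 23377 CPM in the next WT mouse, and Actn2 was highest in Taz-KO 5301, at 1461 CPM with 1024 CPM in the next.

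The other 4 were low values of the lowest-UMI barcodes. Taz-KO 5301 stood at 440.0 CPM of Myl3 (next 2419), 228 CPM of Tnnc1 (next 710.2) and 574 CPM of Actc1 (next 2486), and WT 5356 at 1269 CPM of Tpm1 (next 3902). These are the mice with the lowest mitochondrial share of cardiomyocyte UMIs in their groups.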

How the results depend on the processing

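In cardiomyocytes 2920 genes were called between genotypes by edgeR. Leaving out 1 mouse gave 1972 to 2647, leaving out Taz-KO 4685 and 5301 gave 1940, and DESeq2 gave 3602. Subtracting an ambient share of 0.2 gave 1911. Its profile of ambient RNA was that of the lowest-UMI barcodes of the same mouse, whereas the study took its profile from empty droplets. The thresholds of the study, tried after seeing the data, gave 455 with edgeR and 1525 with DESeq2. In the lowest-UMI barcodes 132 genes were called, 65 to 210 with 1 mouse left out, 200 without a filter on low counts and 326 with DESeq2. The test of the difference between both effects called 224 genes, 104 to 399 with 1 mouse left out, 474 without the filter and 453 without Taz-KO 4685 and 5301. Over the other 8 cell types 851 calls were made, with a gene counted once in each type that called it. Of these calls, 684 were in adipocytes. The total was 37 to 1811 with 1 mouse left out and 1917 without the filter. No member was called in these last 3 comparisons under any of these alternatives. The cause of these moves was not tested, beyond fewer mice or more genes entering. Cardiomyocytes against the lowest-UMI barcodes kept 4 members higher and 4 lower in each leave-out. In those fits 6034 to 7117 of 16821 to 17513 genes tested were higher and 6538 to 7177 lower, so the count of members is near that share.

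With fibroblasts in place of the lowest-UMI barcodes, 6 members changed sign on the TMM scale, with log2 differences of 0.40 for Myl2, 0.0187 for Myl3, 0.11 for Tnni3, 0.0647 for Actc1, 0.86 for Tpm1 and 1.09 for Tnnc1. The genotype calls of Myl2 and Myl3 were also lost with plain library sizes (-0.98 and -1.10), under which the median of all genes was 0.10, and with nuclei typed per barcode (-0.92 and -1.03). That of Myl3 was lost with mitochondrial genes kept (-1.22) and with the ambient share subtracted (-1.60). No paired analysis was possible because replicate numbers are mouse numbers, which no pair of WT and Taz-KO samples shares.

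The comparator sum of Taz-KO 5301, with 297716 UMIs from 557 barcodes, was the smallest, and how far it limits detection there was not tested. Without that mouse no member was called between genotypes in the lowest-UMI barcodes either.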
